A study of Mus musculus with 384 samples.

Results

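The genes described here code for the subunits of the mitochondrial respiratory chain and of ATP synthase. They were chosen by symbol alone: each row whose symbol begins with Nduf, Uqcr, Atp5, Cox4, Cox5, Cox6, Cox7, Cox8, mt-Nd, mt-Co, mt-Cyt or mt-Atp was taken, and 4 pseudogene rows with -ps in the symbol were left out. Of the 46609 rows of the expression table this took 88 coded in the nucleus and 13 coded in mitochondrial DNA. No expression value entered the choice.

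Complex I (NADH dehydrogenase), complex III (cytochrome bc1) and complex IV (cytochrome c oxidase) pass electrons to oxygen and pump protons, and complex V (ATP synthase) uses the proton gradient to make ATP. Each is built from both genomes: the mitochondrial DNA codes for a few membrane-embedded subunits, transcribed as long RNAs that are then cut, while the nucleus codes for all other subunits, which are made in the cytosol and imported. Complex II is coded by the nucleus alone. Hair follicle stem cells sit in the bulge of the follicle, are quiescent in telogen, the resting phase of the hair cycle, and are known for a high rate of glycolysis.

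The cells came from mouse back skin and were sequenced 1 by 1 with Smart-seq2, a full-length method with no molecular identifiers and no strand information. All mice carried Sox9-CreER, a tamoxifen-inducible recombinase under Sox9 control, NFIXfl/fl and the reporter R26-YFPfl/fl. The group titled cKO was NFIBfl/+, with 1 conditional allele of Nfib, and the group titled dKO was NFIBfl/fl, with both, and the labels give an age of P70. There was no wild type group, so dKO is compared with cells that lack Nfix and 1 copy of Nfib by design, and recombination was not checked here. The sort took DAPI-negative, integrin α6-positive, YFP-positive cells that were either Sca-1-negative, as bulge cells are, or Sca-1-positive. After 6 of 384 cells with fewer than 1000 detected genes were left out, the Sca-1-negative cells numbered 71, 47 and 65 on cKO plates 1 to 3 and 93 and 61 on dKO plates 1 and 2. The Sca-1-positive cells numbered 22 on cKO plate 3 and 19 on dKO plate 2.

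The labels do not tie plates to animals, so each genotype counts as 1 sample and no test was run. Differences are described by plate, with the spread over plates beside them, and intervals cover counting of cells only. The 5 Sca-1-negative plates also differed in kind. All cells are labelled male, but plate means of Xist, the RNA of the inactive X chromosome of females, were 51.4, 59.8 and 0.00338 TPM for cKO 1 to 3 against 44.5 and 0.102 TPM for dKO 1 and 2. Plate values are listed in the order cKO 1, 2 and 3 against dKO 1 and 2, and results are also given within the Xist plates (cKO 1 and 2, dKO 1) and the plates without it (cKO 3, dKO 2). Detected genes (at least 1 TPM) averaged 4906, 4923 and 5074 per cell in cKO against 5270.3 and 5226 in dKO. The unit is TPM, a share of all transcripts corrected for length, so read depth is unknown. The nuclear row Rn18s-rs5 alone held 55.3% to 61.5% of it by plate and gate.

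Some mitochondrially coded genes cannot be read from their own rows alone, because the nuclear genome carries copies of the same letters. In the GRCm38 annotation (GENCODE M21), 7 unprocessed pseudogenes lie side by side on the minus strand between chr1:24611535 and chr1:24616197, and each has a row of its own in the table. The reads were 38 and 37 bases long. For 5 members at least 98% of all 37-base words occur in another gene: mt-Co2 (100%), mt-Co3 (99.9%), mt-Atp6 (99.5%), mt-Nd4l (98.9%) and mt-Nd3 (98.1%). For mt-Co1 (59%) and mt-Nd4 (62.6%) part of the gene is shared, and for the other 6 it is under 15%. The gene that shares most with mt-Co1 is Gm13340 (38.1% of the mt-Co1 words), which is not among these 7 pseudogenes.

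The first 60 coding bases of mt-Co3 (chrM:8607-9390, plus strand), a core subunit of complex IV, are shown with its copy Gm28437 (chr1:24613189-24613971, minus strand), because no read within them can tell the genes apart. The 783 bases of the copy match mt-Co3 without a difference, so nothing is in capitals.
mt-Co3: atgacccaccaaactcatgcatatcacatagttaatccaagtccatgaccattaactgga
Gm28437: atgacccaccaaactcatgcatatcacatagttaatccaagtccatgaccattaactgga

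mt-Nd3 (chrM:9459-9806, plus strand), a core subunit of complex I, and its copy Gm28438 (chr1:24612775-24613119, minus strand) differ over 345 bases by T3C alone, counted from the first coding base and written member first. It is shown in capitals as the only letter that separates them.
mt-Nd3: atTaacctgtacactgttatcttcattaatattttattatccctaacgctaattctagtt
Gm28438: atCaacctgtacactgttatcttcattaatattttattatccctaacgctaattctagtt

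mt-Co1 (chrM:5328-6872, plus strand), the catalytic subunit of complex IV, is 1545 bases long, and its copy Gm29216 (chr1:24615706-24616197, minus strand) covers its last 492 bases. Here 6 differences, T1056A, C1057T, A1059G, A1060G, C1062A and A1066T, fall within the first bases of the copy. The stretch from base 1054 to base 1113 is shown with them in capitals.
mt-Co1: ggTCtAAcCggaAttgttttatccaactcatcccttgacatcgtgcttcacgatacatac
Gm29216: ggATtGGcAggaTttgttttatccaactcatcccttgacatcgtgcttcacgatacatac

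The other copies held no difference where they overlap their member: Gm10925 over 678 bases of mt-Atp6, Gm28661 over 681 of mt-Co2, Gm10222 over 294 of mt-Nd4l and Gm28439 over 876 of mt-Nd4. Nuclear-coded members were more distinct. Their median share of 37-base words found in another gene was 3.17%, and 70 of 88 were under 15%. The highest was Ndufaf2, a complex I assembly factor, with 64.8%.

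A further pair is shown because Ndufa4l2 carries the largest difference between the gates among members that passed the rule for gates given below. Ndufa4 (chr6:11900292-11907497, minus strand) codes for a subunit of complex IV, although its name places it in complex I. Ndufa4l2 (chr10:127514967-127517154, plus strand) codes for its paralog, known as a gene induced by low oxygen. Over 245 aligned coding bases they are 68.6% identical. The coding regions of Ndufa4 (249 bases) and Ndufa4l2 (264 bases) share no run longer than 28 bases, and no 37-base word of Ndufa4l2 occurs in another gene. In the aligned 60 bases below (from base 81 of Ndufa4 and base 96 of Ndufa4l2) capitals mark 19 differences.
Ndufa4: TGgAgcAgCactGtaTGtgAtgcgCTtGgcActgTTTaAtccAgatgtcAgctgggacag
Ndufa4l2: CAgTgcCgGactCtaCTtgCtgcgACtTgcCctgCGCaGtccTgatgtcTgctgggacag

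All 13 mitochondrially coded genes and 74 of the 88 nuclear-coded genes were measured, meaning that their mean over the 5 Sca-1-negative plates was at least 5 TPM. Per length, the median level was 170.1 TPM for the mitochondrially coded genes and 27.4 TPM over all 88 nuclear-coded genes, those under 5 TPM included. The highest rows were mt-Atp8 (1399.9 TPM), a small subunit of ATP synthase, mt-Co1 (1300.2 TPM) and mt-Cytb (808 TPM), the cytochrome b of complex III, which together held 69% of the mitochondrially coded sum. mt-Atp8 is a very short gene (chrM:7766-7969) and its end overlaps mt-Atp6 (chrM:7927-8607), so its value per length rests on a short stretch that is partly shared.

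Among complex I genes of the mitochondrial DNA the order was mt-Nd1 (493 TPM), mt-Nd5 (284 TPM), mt-Nd4 (189.8 TPM), mt-Nd2 (98.8 TPM), mt-Nd6 (50.2 TPM), mt-Nd3 (17.7 TPM) and mt-Nd4l (13.3 TPM). mt-Nd6 (chrM:13552-14070) lies on the minus strand, and its end overlaps mt-Nd5 (chrM:11742-13565), so without strand information reads there cannot be told apart. Between them stood mt-Atp6 (170.1 TPM), the proton channel subunit of complex V, mt-Co3 (166.3 TPM) and mt-Co2 (93.5 TPM), which receives electrons from cytochrome c. Since 5 of these rows have a complete copy, their places in the order describe the rows and not the RNAs.

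The 10 highest nuclear-coded genes held 36% of the nuclear-coded sum. From complex V they were Atp5b (209 TPM), the catalytic β subunit, Atp5g2 (103.4 TPM), a source of the membrane ring, Atp5h (83.2 TPM) of the stalk, Atp5a1 (80.2 TPM), the α subunit, and Atp5j (73.4 TPM), also of the stalk. From complex IV they were Cox4i1 (173.8 TPM), Cox8a (107.1 TPM) and Cox5b (102.1 TPM). From complex III they were Uqcrh (124.3 TPM), the hinge protein, and Uqcrc1 (88.5 TPM), a core protein.

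By complex, the median level was 24.4 TPM over 36 measured nuclear-coded subunits of complex I, 41.5 TPM over 8 of complex III, 48.8 TPM over 11 of complex IV and 57.95 TPM over 15 of complex V. No complex I subunit reached the levels of the others' leading genes, with Ndufb9 highest at 62.8 TPM and Ndufb4 lowest at 5.41 TPM. The 7 core subunits of complex I coded in the nucleus (median 23.4 TPM) and its 29 accessory subunits (25.5 TPM) were close. The 7 Ndufaf assembly factors, which help build complex I and are not part of it, had a median of 2.94 TPM, and only Ndufaf3 was measured.

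Isoform pairs of complex IV were one-sided. Cox4i1 stood at 173.8 TPM and Cox4i2, the isoform of lung and low oxygen, at 0.316 TPM. Cox6a2, Cox8b, Cox8c and Cox7b2, known from heart, muscle or testis, were listed at 0 in every cell. Cox7a1, of muscle, stood at 0.0862 TPM beside Cox7a2 at 35.3 TPM and Cox7a2l, a factor that joins complexes III and IV, at 52.4 TPM. Cox6b2, of testis, stood at 2.89 TPM beside Cox6b1 at 67.7 TPM.

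Summed over the 88 nuclear-coded genes, plate means were 2973, 3421 and 3023 TPM in cKO against 3157 and 3331 TPM in dKO. The dKO plates lay within the cKO range. The genotype means over plates, 3139 TPM for cKO and 3244 TPM for dKO, gave a ratio of 1.03, where the highest and lowest cKO plates differed 1.15-fold. The 13 mitochondrially coded genes summed to 4903, 4702 and 5271 TPM against 4841 and 5712 TPM. Their means were 4959 and 5276 TPM, a ratio of 1.06, with a 1.12-fold spread over the cKO plates. Only dKO plate 2 lay above the cKO range. By log2 ratio the sums differed by -0.02 (nuclear) and 0.01 (mitochondrial) on the Xist plates and by 0.14 and 0.12 on the plates without Xist.

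**Figure D1:**
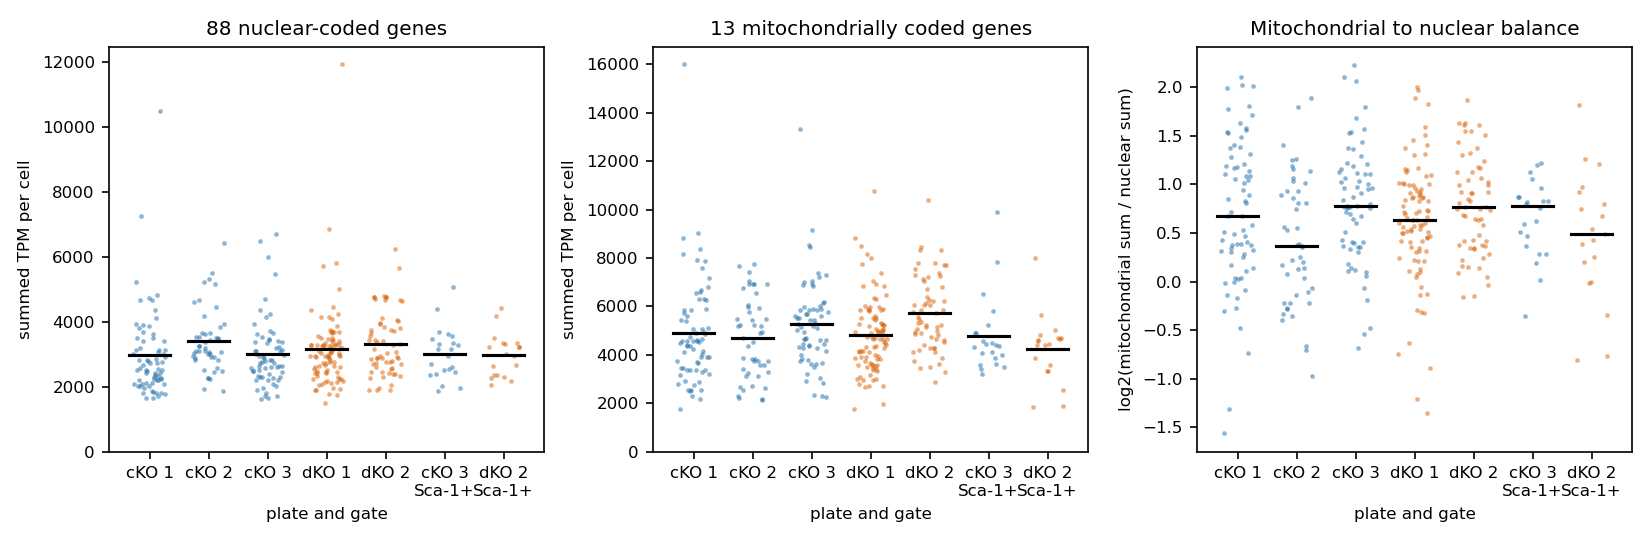
Each point is 1 cell, grouped by plate and gate (cKO blue, dKO orange): left, the summed TPM of 88 nuclear-coded genes; middle, of 13 mitochondrially coded genes; right, the log2 ratio of the second sum to the first. Black lines are means on the left and middle and medians on the right; cKO plate 2 has the lowest median balance (0.37), and the Sca-1-positive cells of dKO plate 2 have a mean mitochondrial sum of 4229 TPM against 5712 TPM in the Sca-1-negative cells.

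No respiratory chain gene passed the rule used for genotype: plate-mean TPM + 1 at least 1.5-fold apart and all plates of a genotype on 1 side, on the scale of mean TPM and on that of mean log2(TPM + 1). Of all 7103 measured genes 1.76% passed as higher in dKO and 3.96% as lower. The 74 nuclear-coded log2 ratios ran from -0.46 (Ndufv3) to 0.53 (Ndufc2), with a median of 0.05, and the median of the 13 mitochondrially coded genes was 0.07. The median of all genes was -0.12. Ratios were above 0 for 42 of 74 nuclear-coded and 8 of 13 mitochondrially coded genes, against 36.1% of all genes. The all-gene median moved to -0.02 with size factors and to -0.003 once the spike-in RNAs and the 5 most abundant rows were removed, and the nuclear median then stood at 0.19.

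Differences by complex were equally small in the sums. Complex I genes coded in the nucleus summed to 911 TPM for cKO and 906 TPM for dKO, complex III genes to 397 and 439 TPM, complex IV genes to 730.1 and 764 TPM and complex V genes to 1002 and 1032 TPM. In complex III, Uqcrq, a small subunit, averaged 32.3, 39.6 and 41.2 TPM in cKO against 47.5 and 56.7 TPM in dKO, and mt-Cytb averaged 767, 692 and 820.2 TPM against 849 and 914 TPM. Both were on 1 side by genotype but under the 1.5-fold limit, with log2 ratios of 0.46 and 0.21. In mean TPM and mean log2 alike, 9 of 74 nuclear-coded genes (12.2%) lay higher on both dKO plates than on each cKO plate. So did 2 of 13 mitochondrially coded genes. No measured member lay lower on both scales, where 4.93% of all genes were above and 7.03% below by the same count.

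A different picture came from the mean of log2(TPM + 1) over cells, which weighs how many cells hold a transcript more than how much the highest cells hold. On that scale 15 of 74 nuclear-coded genes (20.3%) were higher in dKO by at least log2(1.5) with all plates apart, and none was lower. Of all genes 4.21% were higher and 2.0% were lower. No mitochondrially coded gene passed. The 15 were 9 subunits of complex I (Ndufs3, Ndufs5, Ndufs7, Ndufs8, Ndufa8, Ndufa12, Ndufa13, Ndufb8 and Ndufc2), Uqcr10 and Uqcrq of complex III, Cox5a and Cox6b1 of complex IV, and Atp5d and Atp5o of complex V. The median difference was 0.28 for the nuclear-coded, 0.17 for the mitochondrially coded and 0.04 for all genes.

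Ndufs3, a core subunit of the arm of complex I that faces the matrix, had at least 10 TPM in 49.3%, 48.9% and 47.7% of cells in cKO against 68.8% and 65.6% in dKO. The cKO plates stood together and both dKO plates stood above them. Its mean was 17.5, 23.7 and 20.4 TPM against 28.3 and 26.8 TPM, and its mean log2 difference was 0.88. Ndufs5, an accessory subunit of complex I, was found in 45.1%, 55.3% and 49.2% of cells in cKO against 66.7% and 65.6% in dKO. Cox5a, a nuclear-coded subunit of complex IV that lies on the matrix side, was found in 47.9%, 51.1% and 46.2% against 70.97% and 57.4%. These shares describe genes picked by the same values and lend them no support.

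Other members of the 15 differed less in the share of cells. Ndufb8, an accessory subunit of complex I, was found in 60.6%, 61.7% and 67.7% of cells in cKO against 81.7% and 73.8% in dKO. Cox6b1 was found in 85.9%, 83% and 84.6% against 96.8% and 91.8%, and Uqcr10 in 67.6%, 70.2% and 69.2% against 77.4% and 80.3%. Atp5d, the δ subunit in the central stalk of ATP synthase, was found in 83.1%, 80.9% and 70.8% against 90.3% and 86.9%. The dKO plates stood above all cKO plates for each of these 4 genes.

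**Figure D2:**
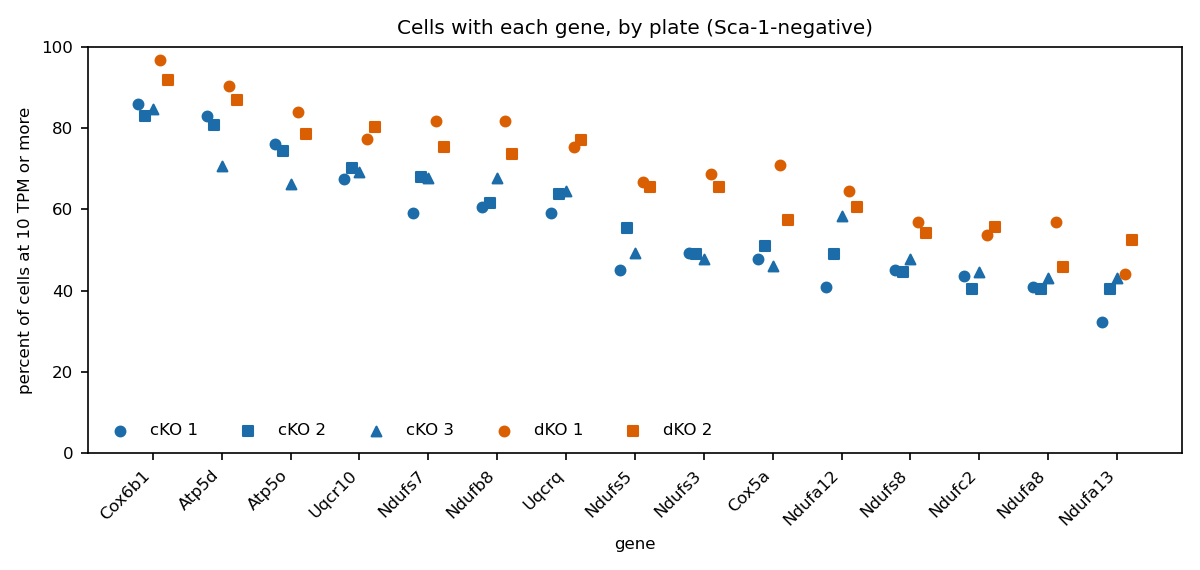
The percent of Sca-1-negative cells with at least 10 TPM is shown for the 15 nuclear-coded genes higher in dKO by mean log2, with a point per plate (cKO blue, dKO orange). Ndufs3 lies at 47.7% to 49.3% on the cKO plates and at 65.6% and 68.8% on the dKO plates; the genes were chosen by this contrast.

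The number of detected genes moved with this result. It was higher on both dKO plates than on any cKO plate, and across cells of a plate the nuclear-coded sum and the number of detected genes had Spearman correlations of 0.16 to 0.54. Over the 74 nuclear-coded genes the median share of cells with at least 10 TPM was 60.6%, 60.6% and 65.4% in cKO against 70.4% and 68% in dKO, while over all genes it was 29.6%, 29.8% and 29.2% against 29% and 31.1%. The members are more abundant than the typical gene, so these rows are not matched in level. When cells were weighted to the same numbers of detected genes on each plate, 5 of 74 genes (6.76%) still passed as higher: Ndufs3, Ndufs5, Ndufa13, Cox5a and Atp5d. Of all genes 3.2% then passed as higher and 3.33% as lower, and the medians were 0.12 for the nuclear-coded and -0.03 for all genes. Matching removes only what the number of detected genes records, and the part of depth beyond it was not tested. Spike-in RNAs held on average 4.95%, 4.98% and 3.72% of TPM per cell in cKO against 3.48% and 3.75% in dKO. The share was thus higher on cKO plates 1 and 2, while cKO plate 3 lay between the dKO plates. Its part in the mean log2 result was not tested.

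The count of nuclear-coded genes higher by mean log2 was 21 on the Xist plates alone, where 6.73% of all genes were higher, and 17 on the plates without Xist, where 10.9% were. It was 12 without cells that carry markers of another cell type (4.86% of all genes) and 13 to 20 when 1 plate was left out (4.76% to 8.87%). The all-gene share was thus above the 4.21% of the full set in each of these settings. Ndufs3, Ndufs5 and Cox5a passed under all 11 settings tried on this scale, and Uqcr10 and Uqcrq under 10. These settings use overlapping sets of cells, so they do not replicate each other.

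**Figure D3:**
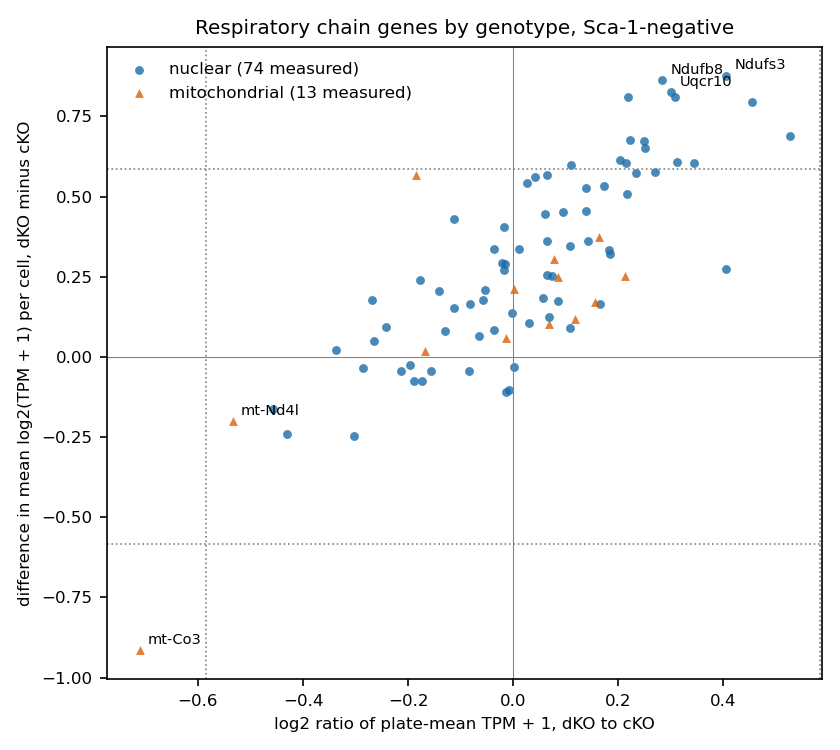
Each point is a measured gene (74 nuclear-coded, blue; 13 mitochondrially coded, orange triangles) with the log2 ratio of plate-mean TPM + 1, dKO to cKO, on the x axis and the difference in mean log2(TPM + 1) per cell on the y axis; dotted lines mark 1.5-fold. Most nuclear-coded points lie above 0 on the y axis (median 0.28) and near 0 on the x axis (median 0.05); mt-Co3 is the lowest point on both.

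mt-Co3 had the lowest ratio of the 87 measured genes. Its row averaged 158.3, 246 and 188 TPM in cKO against 109.004 and 131.04 TPM in dKO, 1.64-fold lower in dKO (log2 ratio -0.71). Both dKO plates were below all cKO plates in mean TPM but not in mean log2. The copy row Gm28437 showed the other direction, with 531, 529 and 557 TPM against 618 and 659 TPM. Added together, the rows gave 689, 775 and 745 TPM against 727 and 790.4 TPM, a ratio of 1.03. The 2.25-fold range of the mt-Co3 row over the 5 plates fell to 1.15-fold in the sum, so the low value of the row was not seen in the pair.

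Within a single cell the pair was mostly read from 1 of its rows. The mt-Co3 row held under 5% of the pair's TPM in 234 of 337 Sca-1-negative cells (69.4%) and over 95% in 45 cells (13.4%). For mt-Co2 these were 240 (71.2%) and 81 cells (24%), and for mt-Nd3, among the 307 cells with a value, 230 (74.9%) and 71 cells (23.1%). mt-Atp6 was less divided, with 51.3% and 2.37% of cells. Thus mt-Co2, mt-Co3 and mt-Atp6 had at least 10 TPM on their own rows in 29.1%, 39.5% and 48.7% of cells, and in 100% of cells with the copy added.

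mt-Nd4l, a core subunit of complex I, was the extreme case. Its row averaged 27.8, 7.77 and 10.3 TPM in cKO against 0.675 and 19.8 TPM in dKO, and it was listed at 0 in every Sca-1-positive cell of cKO plate 3. Its copy Gm10222 averaged 389, 328 and 371 TPM against 426 and 399.8 TPM. The own row reached 10 TPM in 4.45% of cells, and the pair did in 99.1%.

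All 7 copy rows together summed to 2297, 2419 and 2502 TPM on the cKO plates and to 2431 and 2575 TPM on the dKO plates. With them the mitochondrially coded genes summed to 7365 TPM for cKO and 7779 TPM for dKO, at a ratio of 1.06, the same as without them. For mt-Co1 and mt-Nd4 the sum joins rows of different lengths, and the row of Gm13340, which shares part of mt-Co1, was not added. The pairs cannot be split from these values, and whether a pseudogene was transcribed was not tested.

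**Figure D4:**
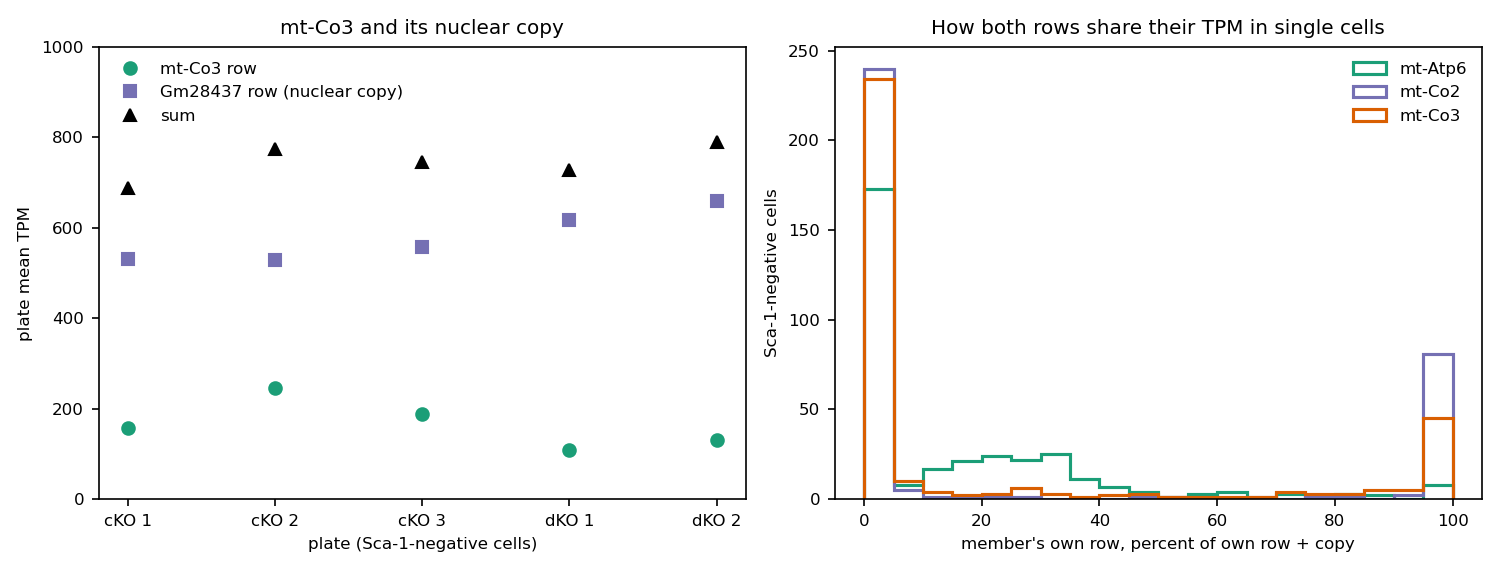
Left, plate-mean TPM of the mt-Co3 row, of the row of its nuclear copy Gm28437 and of their sum on the 5 Sca-1-negative plates; right, the number of Sca-1-negative cells by the percent of the pair's TPM that stood on the member's own row, for mt-Atp6, mt-Co2 and mt-Co3. The sum stays between 689 and 790.4 TPM while the mt-Co3 row runs from 109.004 to 246 TPM, and 234 of 337 cells have under 5% on the mt-Co3 row.

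The balance of both genomes was taken per cell as the log2 ratio of the mitochondrially coded to the nuclear-coded sum. Its plate medians were 0.68, 0.37 and 0.78 in cKO and 0.63 and 0.76 in dKO. The dKO plates lay between the cKO plates, and the difference of 0.09 between the means of the plate medians was under the SD over cKO plates (0.21, n = 3). With the copy rows added the medians were 1.27, 1.01 and 1.38 against 1.21 and 1.32. The nuclear-coded sum was the larger one in 15.5% of cells of cKO 1 (95% exact binomial interval 8.0% to 26%), in 29.8% of cKO 2 (17.3% to 44.9%) and in 7.69% of cKO 3 (2.54% to 17%). The share was 11.8% for dKO 1 (6.05% to 20.2%) and 4.92% for dKO 2 (1.03% to 13.7%). cKO plate 2 stood apart from cKO plate 3 by more than counting error, so the spread within cKO covers the difference between genotypes.

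Per complex, the mitochondrially coded sum over the nuclear-coded sum was lowest for complex I, with 1.21, 1.12 and 1.41 in cKO against 1.24 and 1.34 in dKO. It was 1.71, 1.29 and 1.57 against 1.49 and 1.71 for complex V, 2.19, 1.54 and 2.10 against 1.98 and 2.03 for complex III, and 2.08, 1.89 and 2.45 against 1.87 and 2.25 for complex IV. In each complex cKO plate 2 had the lowest or the second-lowest ratio, and in no complex were the genotypes apart.

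From cell to cell the 2 sums hardly moved together. Spearman correlations between them within a plate were -0.06, -0.02 and 0.12 in cKO and 0.07 and 0.17 in dKO, over 47 to 93 cells that share a plate and a fixed TPM total. The mitochondrially coded sum ran with the mitochondrial ribosomal RNAs, which are cut from the same long transcripts, at 0.68, 0.71 and 0.68 against 0.78 and 0.63. Mean correlations between single genes were 0.14 to 0.22 within the 13 mitochondrially coded genes, 0.14 to 0.17 within the 13 highest nuclear-coded genes and -0.003 to 0.06 between them. These are descriptions over cells of 1 sample each, and in sparse values the gene pairs say little.

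Between the Sca-1 gates, on 1 plate per genotype, the mitochondrially coded sum differed more than the nuclear-coded sum. On cKO plate 3 it was 5271 TPM in Sca-1-negative and 4779 TPM in Sca-1-positive cells (ratio 0.907), and on dKO plate 2 it was 5712 and 4229 TPM (0.740). With the copies added it was 7773 and 6898 TPM (log2 ratio -0.17) and 8286 and 6266 TPM (-0.40). The nuclear-coded sum was 3023 and 3021 TPM (0.999) and 3331 and 2978 TPM (0.894). The mitochondrially coded sum of the Sca-1-positive cKO cells lay within the range of the Sca-1-negative cKO plates (4702 to 5271 TPM). The median balance per cell was 0.78 in Sca-1-negative and 0.77 in Sca-1-positive cells on cKO plate 3. On dKO plate 2 it was 0.76 and 0.49, where the SD over cKO plates was 0.21. A lower balance was thus seen on dKO plate 2 alone. Log2 ratios were below 0 for 8 and 12 of 13 mitochondrially coded genes and for 44 of 75 and 51 of 71 nuclear-coded genes, against 59.1% and 66.4% of all genes in cKO and dKO. The medians were -0.22 and -0.47 (mitochondrial), -0.08 and -0.23 (nuclear) and -0.15 and -0.30 (all genes).

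The gates differed in markers, although all cells are labelled hair follicle stem cells. Of the hair follicle stem cell list 3 genes were higher and 4 lower among 8 measured on cKO plate 3, and 3 were higher and 5 lower among 9 on dKO plate 2. The higher ones were Krt5, Krt14 and Itga6, which basal epidermis also expresses, and the lower ones on both plates were Cd34, Lgr5, Sox9 and Nfatc1. The list's sum, which Krt5 and Krt14 lead, was 2272 TPM in Sca-1-negative and 4278 TPM in Sca-1-positive cells in cKO and 2006 and 4790.5 TPM in dKO. Cd34 averaged 0.362 and 0.165 TPM in the Sca-1-positive cells of cKO plate 3 and dKO plate 2, against 44.3 and 48.4 TPM in the Sca-1-negative cells of those plates, and Lgr5 averaged 0.015 and 0.0247 TPM against 42.1 and 43.99 TPM. Ly6a, which codes for Sca-1, averaged 68.4 and 124.6 TPM against 19.7 and 25.95 TPM, and Krt14, a basal keratin, 2294 and 2821 TPM against 806 and 577 TPM. Krt1, of differentiating epidermis, averaged 271 and 255 TPM against 158.1 and 36.1 TPM. Of the differentiated epidermis list 2 of 5 measured genes were higher and 1 lower on cKO plate 3. On dKO plate 2, 1 of 4 was higher and 1 lower. Of the upper follicle list, which holds Ly6a, 1 of 6 was higher and 3 lower on cKO plate 3. On dKO plate 2, 2 of 5 were higher and 2 lower. Of all genes 10.2% were higher and 17.9% lower in cKO, and 9.84% and 25.7% in dKO. The gate comparison thus sets cells with different marker levels against each other. In each genotype it rests on 1 plate, and the Rn18s-rs5 share was also higher in the Sca-1-positive cells (60.4% and 60.9%) than in the Sca-1-negative cells of those plates (55.3% and 56%).

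Ndufa4l2 was the only member higher in Sca-1-positive cells of both genotypes by the rule for gates (mean TPM + 1 at least 1.5-fold apart and mean log2 at least 0.5 apart). Of 5829 genes measured in both, 3.47% were higher in both and 9.86% lower in both. Its mean was 13.5, 18.1 and 20.5 TPM in cKO against 6.80 and 27.5 TPM in dKO in Sca-1-negative cells, and 136.1 and 168.4 TPM in Sca-1-positive cells (log2 ratios 2.67 and 2.57). Every Sca-1-negative plate stood far below both Sca-1-positive groups. In Sca-1-negative cells at least 10 TPM was found in 9 of 71 (12.7%), 10 of 47 (21.3%) and 15 of 65 cells (23.1%) of cKO and in 15 of 93 (16.1%) and 20 of 61 cells (32.8%) of dKO. In Sca-1-positive cells it was found in 17 of 22 (77.3%, exact interval 54.6% to 92.2%) and 17 of 19 cells (89.5%, 66.9% to 98.7%). The median cell stood at 0 on all 5 Sca-1-negative plates and at 106.6 and 159.9 TPM in the Sca-1-positive groups. Single Sca-1-negative cells reached 167.4 to 516 TPM, so the level within a positive cell overlapped between the gates while the share of positive cells did not.

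Its paralog Ndufa4 did not move with it. Ndufa4 averaged 31.1, 25.6 and 25.7 TPM in cKO against 35.9 and 18.8 TPM in dKO, and 35.1 and 18.5 TPM in the Sca-1-positive cells of cKO plate 3 and dKO plate 2. As the sequences above show, reads of the pair can be told apart over most of their length.

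**Figure D5:**
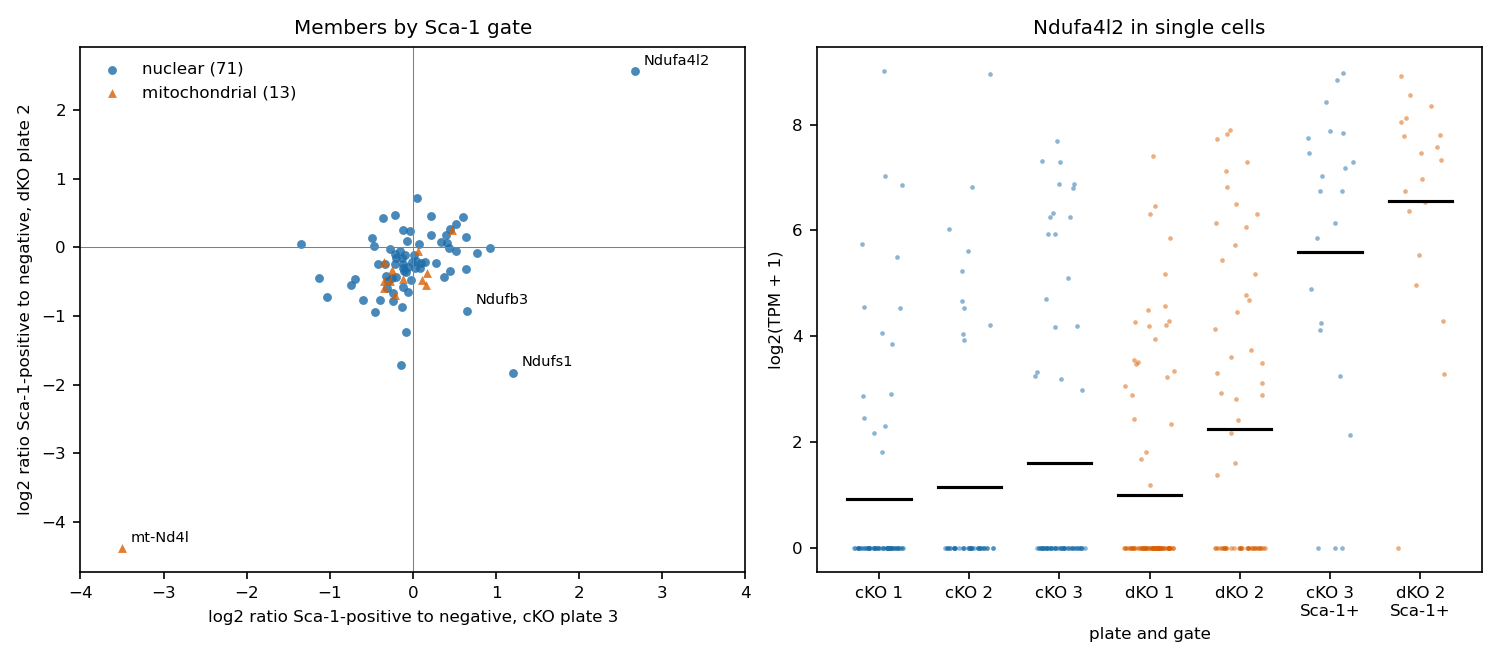
Left, the log2 ratio of Sca-1-positive to Sca-1-negative plate-mean TPM + 1 on cKO plate 3 (x) and dKO plate 2 (y) for 71 nuclear-coded (blue) and 13 mitochondrially coded genes (orange triangles); right, log2(TPM + 1) of Ndufa4l2 in single cells by plate and gate, with lines at the means. Ndufa4l2 lies alone at 2.67 and 2.57, Ndufs1 and Ndufb3 lie on opposite sides of 0, and mt-Nd4l rests on a row at or near 0 in both Sca-1-positive groups.

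Over all nuclear-coded members, Ndufa4l2 included, counts by gate were as follows. On cKO plate 3, 8 of 75 (10.7%) were higher and 6 of 75 (8.0%) lower in Sca-1-positive cells, where 10.2% of all genes were higher and 17.9% lower. On dKO plate 2, 2 of 71 (2.82%) were higher and 12 of 71 (16.9%) lower, where 9.84% of all genes were higher and 25.7% lower. Whether members passed less often than other genes was not tested. Of the mitochondrially coded genes none passed on cKO plate 3. On dKO plate 2, mt-Cytb (914 and 607 TPM) and mt-Nd4 (214 and 131.3 TPM) were lower.

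Atp5a1 and Uqcrq were lower in Sca-1-positive cells of both genotypes. Atp5a1, the α subunit of the catalytic head of ATP synthase, averaged 92.1 TPM in Sca-1-negative and 60.3 TPM in Sca-1-positive cells of cKO plate 3, and 80.2 and 46.6 TPM on dKO plate 2. Uqcrq averaged 41.2 and 19.6 TPM and 56.7 and 34 TPM. The catalytic partner Atp5b, at 222 and 192 TPM and 226 and 167.7 TPM, did not pass in either.

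Among the nuclear-coded members past the rule, the highest ratios in cKO after Ndufa4l2 belonged to Ndufs1, Ndufs8 (16.6 and 32.4 TPM), Cox5a (19.96 and 34.8 TPM) and Ndufb3, and the lowest to Ndufb10 (35.2 and 13.2 TPM), Ndufa9 (11.6 and 4.80 TPM), Uqcrq, Ndufs4 (7.34 and 3.44 TPM) and Ndufa2 (33.1 and 19.3 TPM). In dKO Ndufa10 (37.4 and 62 TPM) was the other higher gene, and the lowest ratios belonged to Ndufs1, Ndufc2 (22.6 and 6.17 TPM), Ndufa12 (36.9 and 15 TPM), Ndufb7 (14 and 6.83 TPM) and Ndufb3. Of the 74 nuclear-coded members measured in Sca-1-negative cells 36 are complex I subunits, and the genes listed are only those with the highest and lowest ratios. Apart from Ndufa4l2, Atp5a1 and Uqcrq, no measured member passed in the same direction on both plates.

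Ndufs1 and Ndufb3 passed in opposite directions. Ndufs1, the largest core subunit of complex I, averaged 7.58 TPM in Sca-1-negative and 18.8 TPM in Sca-1-positive cells of cKO plate 3 (log2 ratio 1.21) and 16.2 and 3.86 TPM on dKO plate 2 (-1.82). Ndufb3, an accessory subunit, averaged 9.78 and 15.9 TPM (0.65) and 13.9 and 6.86 TPM (-0.92). The difference between the genotypes was not tested. Both genes are near the limit of measurement, and other Sca-1-negative plates of cKO held 13 and 19.9 TPM of Ndufs1, so the Sca-1-positive cells of cKO plate 3 lay within the range of the cKO plates.

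Markers of other cell types were also read. Summed over their lists they reached at most 34.3 TPM for immune cells, 23.8 TPM for fibroblasts, 24.8 TPM for Schwann and nerve cells and 20.8 TPM for endothelial and mural cells by plate and gate, and at most 3.57 TPM for melanocytes, muscle and erythroid cells. Merkel cell markers reached at most 0.027 TPM. Some differed by genotype. Immune markers summed to 34.3, 28.5 and 11.2 TPM in cKO against 8.24 and 6.13 TPM in dKO, and fibroblast markers to 7.16, 2.69 and 4.34 TPM against 11.8 and 23.8 TPM. The latter rested on Col1a1, the 1 measured fibroblast marker, which passed as higher in dKO (2.43 and 17.8 TPM), while Dcn and Col3a1 stood at or near 0. Krtdap, of differentiated epidermis, also passed as higher, with 68.7, 20.4 and 120.4 TPM in cKO against 180.2 and 187.6 TPM in dKO. Those of differentiated epidermis were 197, 72.8, 413, 432 and 292 TPM on the 5 Sca-1-negative plates and 603 and 500.4 TPM in the Sca-1-positive cells, and 65 of 378 cells held at least 3 markers of 1 other type. Without those cells 12 nuclear-coded genes were higher in dKO by mean log2, as given above. The part of differentiated cells in the gate results was not tested.

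Genes that work with the chain were read from lists. Of the 5 measured genes of complex II and cytochrome c none passed between genotypes (median log2 ratio 0.10), with Sdha at 33.1 and 35.5 TPM and Cyc1 as the other leading gene. Sdha, the flavoprotein of complex II, was lower in Sca-1-positive cells of dKO plate 2 (40.4 and 16 TPM), and so was Sdhc (28.8 and 13 TPM), and neither passed on cKO plate 3. These were 2 of 5 measured genes, where 25.7% of all genes were lower on dKO plate 2. Among 14 measured assembly factors outside the symbol rule, Cox10, an enzyme of haem a synthesis for complex IV, was higher in dKO (5.40 and 10.2 TPM). Acad9, a complex I assembly factor, was lower (52.9 and 34.4 TPM), with 50.8, 59.9 and 47.9 TPM in cKO against 36.6 and 32.3 TPM in dKO. Their list median was 0.06.

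The 13 measured genes of mitochondrial DNA expression and upkeep included none past the rule between genotypes (median -0.18), with Grsf1 and Fastk, which bind mitochondrial RNA, the most abundant. Of the 5 measured regulators of mitochondrial biogenesis none passed (median -0.32), and of 59 measured mitochondrial ribosomal proteins none passed (median -0.07). By gate 8 of 57 ribosomal proteins were higher and 8 lower on cKO plate 3 and 2 were higher and 14 lower on dKO plate 2. For comparison, the all-gene percentages were those given above. In the citric acid cycle, Idh3g, a regulatory subunit of isocitrate dehydrogenase, was the 1 of 13 genes higher in dKO (23.9 and 37.1 TPM). It was lower in Sca-1-positive cells of both genotypes, at 29.3 and 18.6 TPM and at 40.7 and 14.1 TPM, and the cycle's median by gate was -0.25 and -0.49. Of the 13 cycle genes 1 was higher and 2 lower on cKO plate 3, and none higher and 4 lower on dKO plate 2. Of all genes 17.9% and 25.7% were lower, with medians of -0.15 and -0.30.

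Glycolysis makes ATP outside the mitochondrion. Of its 15 measured genes 3 were higher and 1 lower in Sca-1-positive cells of cKO plate 3, where 10.2% of all genes were higher and 17.9% lower. On dKO plate 2, 6 were higher and 1 lower, where 9.84% of all genes were higher and 25.7% lower. The median log2 ratios were 0.27 and 0.37 beside all-gene medians of -0.15 and -0.30. A difference between glycolysis and chain genes was not tested. Pfkp, a phosphofructokinase, averaged 34.2 and 93.5 TPM and 40.2 and 85.2 TPM. Ldha, the lactate dehydrogenase subunit that favours lactate, averaged 130 and 201 TPM and 146.5 and 233 TPM. Ldhb, its counterpart subunit, averaged 31.9 and 3.09 TPM and 34.1 and 6.73 TPM. Pfkp and Ldha were thus higher and Ldhb lower in Sca-1-positive cells of both genotypes, beside the higher Ndufa4l2. Each comparison rests on 1 plate, with 22 and 65 cells in cKO and 19 and 61 cells in dKO. Between genotypes no glycolysis gene passed (median 0.25), with Gapdh the most abundant.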

How the data were processed

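Single-cell Smart-seq2 libraries (paired-end reads of 38 and 37 bases) were processed by the submitters. The authors deposited 1 table of TPM per gene and cell. The submitters' processing notes name Bowtie2 2.2.9 along with RSEM 1.2.30, on mm10 (GRCm38). The sources used here do not state the annotation release. A read matching more than 1 gene is split among them by RSEM's model. TPM keeps no depth, so no count model was used.

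Plates were averaged over cells with numpy 2.4.6 and pandas 2.3.3, ratios were taken on mean TPM + 1, and genes under 5 TPM were not called. The ratio rules were run on simulated cells drawn independently around a shared mean per gene. Some genes had set fold changes, and plates did not otherwise differ. That run cannot show how often plate differences alone pass the rules. Coordinates and sequences came from GENCODE M21, which holds 46005 of the table's 46517 mouse gene identifiers. The members, lists and rules were chosen with earlier results of these data known. Named were all mitochondrially coded genes, the 10 highest nuclear-coded genes, up to 5 members each way per gate, isoform pairs and members of related lists past a rule, or otherwise leading ones; genes named beyond these were chosen after their values were seen.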

Additional observations from a re-analysis of the deposited data

Results flagged for a closer look

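Between the gates, 2 members moved in opposite directions in the 2 genotypes. The log2 ratio of Sca-1-positive to Sca-1-negative cells was 1.21 on cKO plate 3 and -1.82 on dKO plate 2 for Ndufs1, and 0.65 and -0.92 for Ndufb3. The mt-Nd4l row had a log2 ratio of dKO to cKO of -3.49 on the Xist plates and 0.88 on the plates without Xist, and its copy Gm10222 holds nearly all of the pair's TPM in 319 of 334 cells (95.5%). These differences between groups were not tested.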

How the results depend on the processing

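No paired analysis was possible because plate numbers do not pair animals and no test was run. Some alternatives were chosen after seeing the data. Of the values that sum up a comparison, 271 stayed within 1 SD over the cKO plates (counts within 1.5 times) and 56 did not; of the log2 ratios of mt-Co3 and Ndufa4l2, 34 did and 8 did not. The cause was not tested.

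Without 1 plate, the dKO to cKO ratio of the mitochondrially coded sum ran from 0.976 (without dKO plate 2) to 1.15 (without dKO plate 1), its median log2 ratio from -0.011 to 0.13, and members past the rule from 0 to 2 in each direction: Ndufa4l2 and Ndufc2 higher and Ndufb6 and mt-Co3 lower without dKO plate 1, mt-Co3 lower without cKO plate 1, mt-Nd4l lower without dKO plate 2. Of all genes 6.34% were higher and 8.79% lower without dKO plate 1. Without cKO plate 1 6.04% were lower, and without dKO plate 2 10.2% were. By mean log2, 13 to 20 nuclear-coded members were higher and 0 to 2 lower, where 4.76% to 8.87% of all genes were higher and 2.1% to 4.76% lower.

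Size factors gave 1.14 and 0.16 for the mitochondrially coded sum and median, with 1 member higher (Ndufc2), where 2.78% of all genes were higher. Removing the spike-ins and the 5 most abundant rows gave 1.14 and 0.19 (nuclear), 1.16 and 0.19 (mitochondrial) and 2 members higher, where 4.74% of all genes were higher. By gate it gave 1.08 and 0.985 (nuclear, cKO and dKO), 0.975 and 0.829 (mitochondrial) and 4 members higher in dKO. By mean log2 it gave 27 nuclear-coded members higher, where 8.82% of all genes were higher. The nuclear median was then 0.47 beside 0.11 for all genes. Removing the mt- rows as well gave 1.14 and 0.20.

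The mean log2 scale gave medians of 0.28 and 0.17 and 15 members higher, where 4.21% of all genes were higher. By gate it gave 17 (cKO) and 9 (dKO) higher. All-gene shares by gate are given above for the main settings only. Gate counts under alternatives thus have no share beside them and do not set members against other genes. Matching on detected genes gave 0.957 and -0.049 (nuclear), -0.022 (mitochondrial) and 1 member lower (Ndufv3), where 5.54% of all genes were lower. By gate in dKO it gave 1.01, 0.802, 8 higher and 7 lower. With mean log2 it gave 5 members higher, where 3.2% of all genes were higher, and a median of 0.12. The Xist plates gave 2 members lower, where 14.4% of all genes were lower. Those without Xist gave 4 members higher, where 12.6% of all genes were higher. By mean log2 the plates without Xist gave 2 nuclear-coded members lower, where 5.62% of all genes were lower, and a nuclear median of 0.15. Without cells with markers of another type 1 member was higher (Atp5sl) and 1 lower (mt-Co3), where 2.1% of all genes were higher and 3.94% lower. By gate in cKO 13 members were then higher.

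By gate, a pseudocount of 10 gave 3 higher and 2 lower (cKO) and 6 lower (dKO), removal of the highest 5% of cells 4 higher (dKO), and negative wells of rows C and D alone 4 (cKO) and 7 (dKO) higher. No all-gene share was computed for these settings, so the counts do not set members against other genes. Ndufa4l2 was found in 47.5% of cells of dKO plate 2 at 1 TPM and in 18% at 50 TPM. Depth is unknown in TPM, and rows with a nuclear copy are limited by shared reads.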
